A study of Caenorhabditis elegans with 6 samples.

Results

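The genes described here are hlh-30 and the 5 Myc/Max/Mad-like genes of Caenorhabditis elegans, a nematode worm: mml-1, mxl-2, mdl-1, mxl-1 and mxl-3. They were taken by gene symbol from the annotation of the array's probe sets, which gave 9 probe sets for 6 genes, among 22548 non-control probe sets and 17118 genes in all. hlh-30 had 3 probe sets, mml-1 had 2, and the other 4 genes had 1 each. All 6 genes were found in RefSeq under the same Entrez gene number, hlh-30 with 10 annotated transcripts, mml-1 with 2 and the others with 1 each.

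These genes encode basic helix-loop-helix proteins, most of them with a leucine zipper, that bind DNA as dimers at short palindromic sites called E-boxes. HLH-30 is the worm counterpart of mammalian TFEB, which activates genes of autophagy and of lysosomes and is held in the cytoplasm when nutrients are plentiful. MML-1 is the counterpart of the Mondo proteins and dimerises with MXL-2, the counterpart of Mlx. MDL-1 is a Mad-like repressor that dimerises with MXL-1, a Max-like protein, whereas MXL-3, another Max-like protein, binds DNA as a homodimer and in worms is known to repress lysosomal lipase genes when food is present. Several of these factors are known in worms for their part in fat metabolism and lifespan.

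Transcript levels were measured on 6 Affymetrix arrays, 3 of hlh-30(tm1978) worms, which carry the mutant allele tm1978 of hlh-30, and 3 of the wild-type strain N2. All worms were grown at 20 °C, and each replicate was a separate biological sample, made by pooling whole-animal RNA from embryos with that from larvae of the L1 and L2 stages. The age mix and the tissues are therefore averaged in every value, and fewer cells of a type cannot be told apart from less RNA per cell. The sources used here do not give the bases altered by tm1978 or the history of crosses of the strain, and whether the hlh-30 probe sets lie within the altered bases was not tested.

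Values are the authors' deposited log2 expression values. The lowest value, 2.04, was held by 31.7% to 32.3% of probe sets per array, and a probe set was tested if it reached a log2 value of 4 on at least 3 of the 6 arrays. That filter left 12060 probe sets and 9113 genes, and the 9 probe sets of the 6 genes passed it on every array, with a lowest value of 5.53. Of 27 early embryo markers on the array 21 were tested, as were 16 of 18 larval markers but only 4 of 18 adult sperm and yolk markers; 13 of those 18 lay under 4 on all arrays. The third array of each genotype (mutant 3 and wild type 3) stood apart from its group: over all probe sets tested, the root mean square distance from the other arrays of the genotype was 0.68 for mutant 3, against 0.35 and 0.39 for the other mutants, and 0.52 for wild type 3, against 0.31 and 0.30. Results that rest on these arrays are given with and without them. Levels of different probe sets are not on a common scale, since probes differ in affinity, so only differences between arrays are compared below.

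The hlh-30 signal was lower on all 3 mutant arrays than on any wild-type array, whichever of its 3 probe sets was used. At these probe sets, fewer hlh-30 transcripts cannot be told apart from transcripts that lack the bases the probes bind. The brightest was 174862_at, where the mutant arrays read 10.52, 10.65 and 9.66, against 12.05, 12.07 and 12.34 on the wild-type arrays. The gap between the highest mutant array and the lowest wild-type array was 1.40 on the log2 scale, and the mutant signal was 27.2% of that in wild type (95% interval 16.14% to 45.9%). The mutant mean was 10.28 ± 0.54 (SD, n = 3) and the wild-type mean 12.16 ± 0.16 (SD, n = 3). The log2 difference was −1.88 (SE 0.29), and its limma adjusted p was 0.128 (Benjamini-Hochberg over all probe sets tested; unadjusted 0.00137).

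The other hlh-30 probe sets gave the same picture. Probe set 194161_s_at read 8.45, 8.67 and 6.90 on the mutant arrays, against 10.07, 10.22 and 10.56 on the wild-type arrays, a log2 difference of −2.28 (SE 0.51). Probe set 190299_at read 5.88, 6.48 and 5.53 on the mutant arrays, against 8.04, 7.79 and 8.53 on the wild-type arrays, a log2 difference of −2.15 (SE 0.32). Relative to wild type, the mutant signal was thus 20.6% and 22.5% at these probe sets, with limma adjusted p-values of 0.26 and 0.121. All 3 probe sets still read above the floor value on every mutant array, and whether that signal came from hlh-30 transcripts was not tested. The distance between probe sets varied between arrays. For 194161_s_at minus 174862_at it was −2.76 on mutant 3, against −2.08 and −1.99 on mutants 1 and 2. On the wild-type arrays it was −1.98, −1.86 and −1.79. For 190299_at minus 174862_at it was −4.64 on mutant 1, against −4.17 and −4.13 on mutants 2 and 3. On the wild-type arrays that distance was −4.01, −4.29 and −3.81. Of the 9113 genes tested, only 15 had a fitted difference at least as far below 0 as hlh-30, or 0.165%.

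None of the 9 probe sets passed an adjusted p of 0.05 in limma, where 0.116% of all probe sets tested were called lower and 0.0166% higher in the mutant. At an unadjusted p under 0.05, 6 of the 9 were lower and none higher, where 7.40% of all probe sets were lower. Of those 6, 3 belong to hlh-30 itself, the mutated gene, 2 to mml-1 and the last to mxl-3. The mutant and wild-type arrays did not overlap at 7 of the 9 probe sets, all lower in the mutant, where 10.7% of all probe sets separated that way and 3.65% the other way. Because 3 of these 7 belong to hlh-30 and 2 to mml-1, they stand for 4 of the 6 genes, beside 9.87% of all genes. Fitted differences were below 0 at 8 of the 9 probe sets, which stand for 5 of the 6 genes, where 55% of all probe sets were below 0. The median difference over the 5 genes other than hlh-30 was −0.46, against −0.010 over all genes tested.

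**Figure D1:**
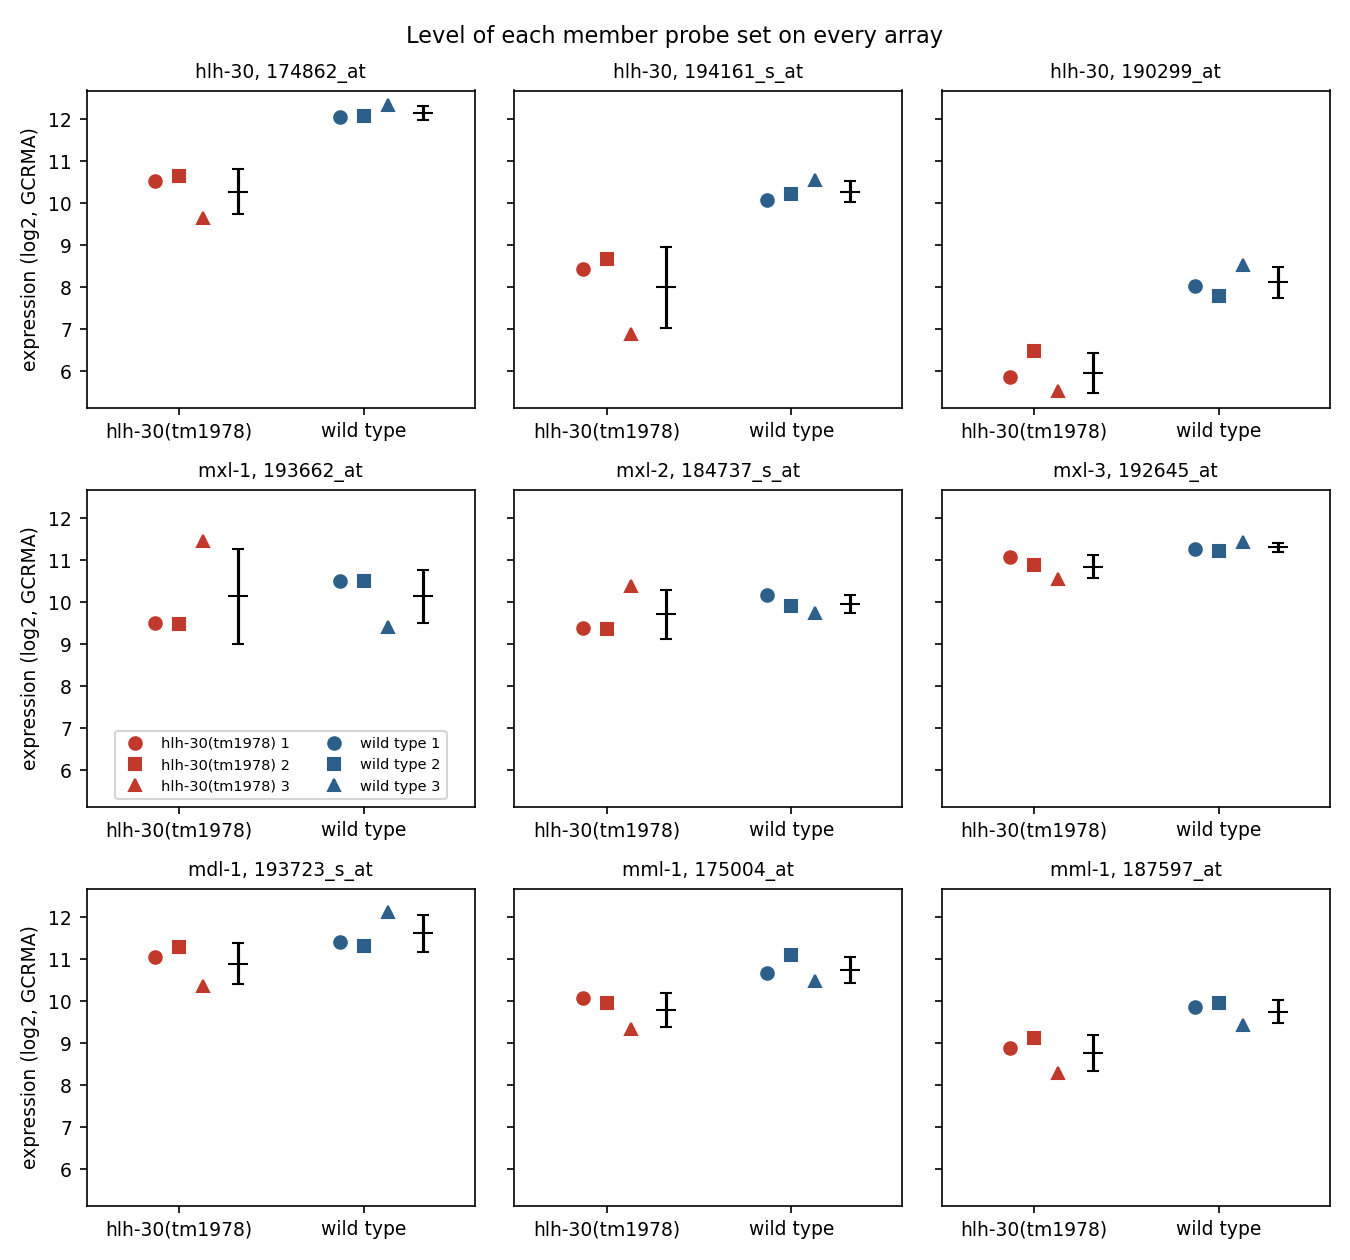
Log2 expression of the 9 probe sets on each array, with hlh-30(tm1978) in red on the left and wild type in blue on the right; symbols give the replicate number, and the black bar is the mean with its SD (n = 3). The mutant arrays lie below all wild-type arrays at every probe set of hlh-30, mml-1, mdl-1 and mxl-3, and the groups overlap at mxl-1 and mxl-2, where mutant 3 is the highest array.

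Of the Mondo and Mlx pair, mml-1 was lower in the mutant at both of its probe sets. At 175004_at the mutant arrays read 10.08, 9.97 and 9.34, against 10.67, 11.10 and 10.47 on the wild-type arrays. At 187597_at the mutant arrays read 8.88, 9.13 and 8.29, against 9.86, 9.95 and 9.44 on the wild-type arrays. The highest mutant array lay 0.39 and 0.31 below the lowest wild-type array at these probe sets. The differences were −0.95 (SE 0.27) and −0.98 (SE 0.27), so that the mutant signal was 51.9% and 50.5% of that in wild type, with limma adjusted p-values of 0.367 and 0.347 (unadjusted 0.0161 and 0.0139).

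Its partner mxl-2 did not separate the genotypes. The mutant arrays read 9.39, 9.38 and 10.39, against 10.19, 9.92 and 9.75 on the wild-type arrays. Mutants 1 and 2 lay below every wild-type array, and mutant 3 lay above them all. The fitted difference was −0.23 (SE 0.32, 95% interval −1.06 to 0.59) with a limma adjusted p of 0.835. It was −0.57 without mutant 3, −0.071 without mutant 1, −0.063 without mutant 2 and −0.12 without wild type 1, and none of these passed the adjusted test.

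Of the Mad and Max pair, mdl-1 read 11.05, 11.28 and 10.36 on the mutant arrays, against 11.42, 11.32 and 12.12 on the wild-type arrays. The groups were separated by only 0.041, between mutant 2 and wild type 2, and the array with the lowest value was mutant 3 and that with the highest wild type 3. The difference was −0.73 (SE 0.34, 95% interval −1.59 to 0.14) with a limma adjusted p of 0.621. It was −0.46 without mutant 3 and −0.48 without wild type 3.

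The Max-like partner mxl-1 had the widest spread of the 6 genes between arrays of the same genotype. The mutant arrays read 9.51, 9.49 and 11.46, against 10.51, 10.50 and 9.42 on the wild-type arrays. Arrays 1 and 2 of each genotype were nearly equal, with the mutants lower, while the arrays numbered 3 were the other way round, mutant 3 being the highest of all and wild type 3 the lowest. The means were 10.15 ± 1.13 (SD, n = 3) in the mutant and 10.14 ± 0.63 (SD, n = 3) in wild type, a difference of 0.010 with a 95% interval of −1.71 to 1.73 (limma adjusted p 1). That difference was −0.64 without mutant 3 and −0.35 without wild type 3, so its sign depended on these arrays.

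The homodimer-forming mxl-3 had the smallest standard error of the 6 genes. The mutant arrays read 11.09, 10.90 and 10.55, against 11.28, 11.22 and 11.43 on the wild-type arrays. Every mutant array was lower, by a gap of 0.13 between mutant 1 and wild type 2. The difference of −0.46 (SE 0.16, 95% interval −0.87 to −0.061) left 72.5% of the wild-type signal and did not pass the adjusted test in limma (adjusted p 0.472, unadjusted 0.0315). It was −0.31 without mutant 3.

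The Max-like and Mlx-like partners therefore departed from the other genes on the arrays numbered 3. On mutant 3, mxl-1 lay 1.96 and mxl-2 1.00 above the mean of the other mutant arrays. On the same array the deviation was −0.93 for hlh-30 at its brightest probe set, −0.81 for mdl-1, −0.68 for mml-1 at 175004_at and −0.45 for mxl-3. On wild type 3 the order turned, with deviations from the other wild-type arrays of −1.09 for mxl-1 and −0.30 for mxl-2, against 0.75 for mdl-1, 0.28 for hlh-30 and 0.18 for mxl-3. mml-1 did not follow that turn, at −0.41 on wild type 3.

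On average, early embryo and maternal transcripts were, like mxl-1, highest on mutant 3 and lowest among the wild-type arrays on wild type 3. Averaged over the 21 genes tested of 28 listed, their level was 7.62, 7.66 and 8.69 on the mutant arrays, against 8.23, 7.98 and 7.69 on the wild-type arrays. The range was thus 7.62 to 8.69 in the mutant and 7.69 to 8.23 in wild type, with a median difference between genotypes of 0.044. Single genes of the list varied unequally. The SD over the mutant arrays was 2.06 for pos-1 and 1.77 for nos-2, but 0.0033 for mei-1 and 0.024 for rme-2. Of the listed markers on the array, mex-1, oma-1, egg-1, chs-1, puf-11 and pgl-3 lay under 4 on all arrays. Larval markers, by contrast, were on average lowest on the arrays numbered 3. Their mean was 11.39 on mutant 3, against 11.74 and 11.70 on the other mutants. On wild type 3 it was 11.25, against 11.57 and 11.59. The part of the stage mix in the values of the 6 genes was not tested beyond the fit that follows.

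**Figure D2:**
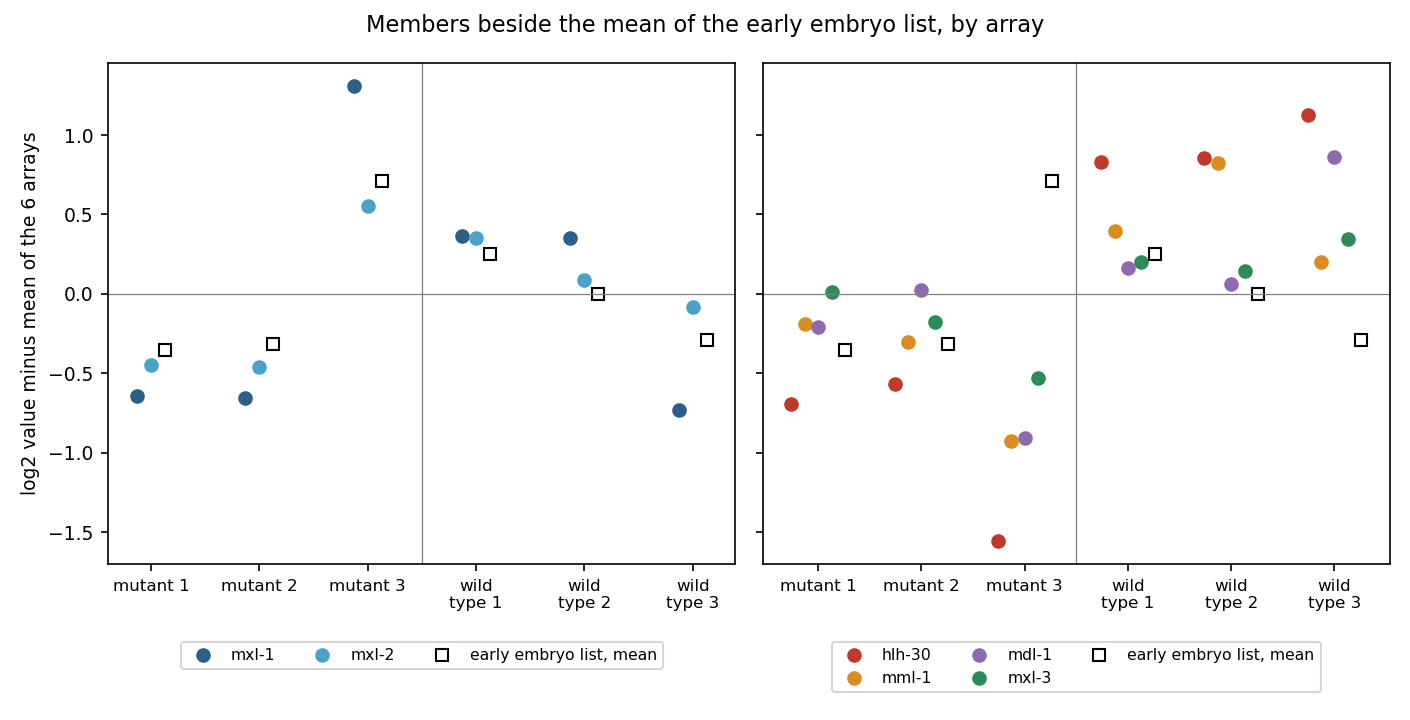
Log2 value minus the mean of the 6 arrays, by array, with the mutant arrays left of the wild-type arrays; filled circles are genes at their brightest probe set and open squares the mean of the early embryo list. On mutant 3, mxl-1, mxl-2 and the early embryo list lie above their other mutant arrays, whereas hlh-30, mml-1, mdl-1 and mxl-3 lie below theirs.

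When the level of the early embryo list was added to the limma fit as a covariate (its mean on each array), the fitted differences of the 6 genes moved by little, and their errors were smaller. For hlh-30 the difference was −1.86 (SE 0.082) with a limma adjusted p of 0.0406, where 0.191% of all probe sets were called lower. Probe set 194161_s_at of hlh-30 was also called, at −2.24 (SE 0.13, limma adjusted p 0.0406). For mxl-1 the standard error was 0.17 with the covariate, against 0.67 without it, around a difference of −0.038. For mxl-2 the difference was −0.26 (SE 0.048) and for mxl-3 −0.45 (SE 0.076), with limma adjusted p-values of 0.13 and 0.119. This fit spends a degree of freedom of only 6 arrays on a list that was itself measured on them.

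Without both arrays numbered 3, which left 2 mutant and 2 wild-type arrays, all 6 genes were lower on both mutant arrays than on both wild-type arrays. Of all probe sets, 33.6% separated that way at this size. hlh-30 was called at −1.47 (SE 0.059) and mxl-1 at −1.01 (SE 0.020), each with a limma adjusted p of 0.042, where 1.66% of all probe sets were called lower. The mutant signal of mxl-1 was then 49.8% of that in wild type. The values for mml-1, mxl-2, mxl-3 and mdl-1 were −0.85, −0.67, −0.26 and −0.21, with limma adjusted p-values from 0.101 to 0.381. The covariate and the removal of these arrays thus gave different values for mxl-1, near 0 in the first case and about −1 in the second.

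With array quality weights, which let limma count outlying arrays less, hlh-30 was called at −1.55 (SE 0.10, limma adjusted p 0.00649) and mml-1 at −0.80 (SE 0.15, limma adjusted p 0.0455). The other probe sets of both genes were called as well, where 5.02% of all probe sets were called lower and 1.65% higher. mxl-1 read −0.90 and mxl-2 −0.63 in that fit, with limma adjusted p-values of 0.0887 and 0.0541. The direction of hlh-30, mml-1, mxl-2, mxl-3 and mdl-1 was the same in all of these fits, and after quantile normalization and median centring.

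**Figure D3:**
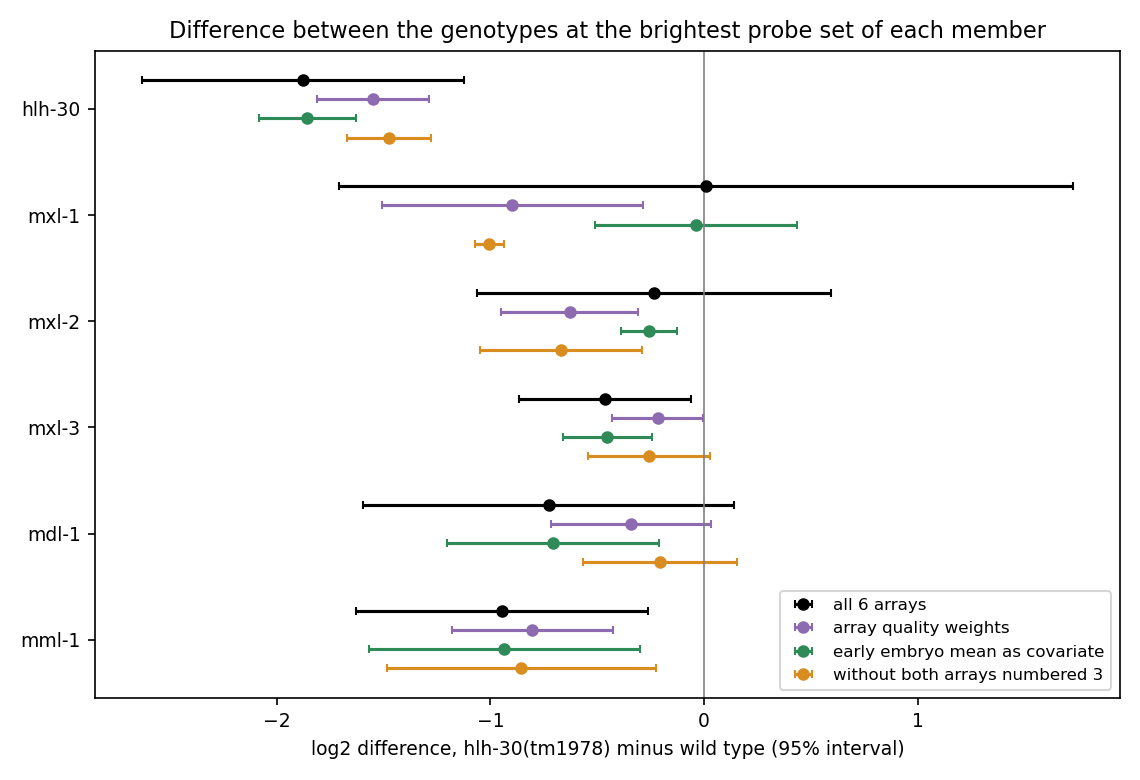
Log2 difference, mutant minus wild type, with its 95% interval at the brightest probe set of each gene in 4 limma fits. hlh-30 lies between −1.88 and −1.47 in all of them, mml-1 between −0.95 and −0.80, and mxl-1 between −1.01 and 0.010.

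The lower signal at hlh-30 was set against that of the other 5 genes array by array. On the arrays numbered 3, mxl-1 and mxl-2 departed in the opposite direction to hlh-30, and the spread was wider after this step: the SD was 0.66 in the mutant and 0.26 in wild type, against 0.54 and 0.16 for hlh-30 alone. hlh-30 minus the mean of the others was 0.30, 0.45 and −0.76 on the mutant arrays, against 1.24, 1.26 and 1.70 on the wild-type arrays. The groups did not overlap, and the difference of −1.40 had an exact two-sided permutation p of 0.1, the smallest that 3 arrays against 3 allow. It ran from −1.63 to −1.03 when each array was left out in turn, the latter without mutant 3. Set against each gene on its own, hlh-30 was lower by 1.89 on the log2 scale relative to mxl-1, 1.64 to mxl-2, 1.41 to mxl-3, 1.15 to mdl-1 and 0.93 to mml-1, with an exact permutation p of 0.1 in each of these 5 comparisons.

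The genes whose pattern over the 6 arrays was most like that of hlh-30 were ranked by the root mean square distance between log2 values centred on each gene's own mean. The nearest of 9112 genes was Y54G2A.11 at a distance of 0.27, followed by pqn-62 (0.27), fbxl-1 (0.31), a gene with only a sequence name (0.35) and unk-1 (0.36), with a median distance of 0.99 over all genes. Their differences between genotypes lay between −1.40 and −1.23, and none was called. Among the other 5 genes of the family, mml-1 ranked 51, mdl-1 98 and mxl-3 318, while mxl-2 ranked 6250 and mxl-1 8683. These ranks describe 6 arrays only. Because the distance takes in the difference between genotypes, the falls of the nearest genes follow from the choice and are no separate result. The ranks within the family depend on that difference in the same way.

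The genes described in worms as activated by HLH-30 were mostly lower in the mutant. This list was chosen with earlier results of these data known and holds genes already known to be low here. Its counts are therefore not independent evidence. Of 44 listed genes 31 were tested, 26 with a fitted difference below 0, beside 52.3% of all genes, and a median of −0.22. Mutant and wild-type arrays were fully separated for 17 of the 31, all lower in the mutant, beside 9.87% of all genes. At an unadjusted p under 0.05 were 13, where 6.94% of all genes were lower and 1.66% higher. Over all probe sets 1 passed the test, where 0.132% of all genes were called lower and 0.0110% higher. It was epg-9, which encodes the counterpart of the autophagy-initiation protein ATG101. epg-9 read 8.35, 8.39 and 8.38 on the mutant arrays, against 9.31, 9.51 and 9.31 on the wild-type arrays, and fell by 1.00 on the log2 scale (SE 0.074, limma adjusted p 0.0352). Its values were identical on wild type 1 and wild type 3. With any 1 array left out the difference stayed between −1.04 and −0.93 but no longer passed, with limma adjusted p-values from 0.0895 to 0.211, and it was −1.04 with an adjusted p of 0.0569 without both arrays numbered 3. The call was also lost with no filter (limma adjusted p 0.095), trended and robust variance (0.0512), the early embryo covariate (0.0563) and the replicate block (0.443).

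Next in that list by p came atg-18, a WIPI-family protein of autophagosome formation, at −1.14 (SE 0.12, limma adjusted p 0.0676). scav-3, a scavenger-receptor-family lysosomal membrane protein, differed by −0.69 (SE 0.089) and atg-13, of the kinase complex that starts autophagy, by −0.81 (SE 0.11), with limma adjusted p-values of 0.0903 and 0.0957. Of the lipases that MXL-3 is known to repress, lipl-2, lipl-3 and lipl-4 lay under 4 on all arrays. Another lipase gene of the list, lipl-5, was tested and differed by −0.22 (SE 0.17, limma adjusted p 0.755), with overlapping arrays. Intestine markers, of which asp-1 is also in the list, differed in the same direction, with 6 of 15 genes (40%) separated with the mutant lower, beside 9.87% of all genes, and a median of −0.17. Their mean level was 11.003 to 11.30 on the mutant arrays and 11.35 to 11.37 on the wild-type arrays, and their part in the list's values was not tested. Of the body wall muscle markers 9 of 16 (56.3%) had every mutant array lower, beside 54.8% of the genes described as activated by HLH-30 and 9.87% of all genes. Their median was −0.50, beside −0.22, so the downward direction was not particular to the HLH-30 list. Their mean levels were 12.32 to 12.61 in the mutant and 12.74 to 13.09 in wild type, and their part in the values of the 6 genes and of the HLH-30 list was not tested. Among the 16 muscle markers 1 was called lower, where 0.132% of all genes were. It was tnt-2, which encodes a troponin T, at −1.01 (SE 0.070, limma adjusted p 0.0352). With any 1 array left out tnt-2 stayed between −1.05 and −0.95 but did not pass, with limma adjusted p-values from 0.0823 to 0.203, nor did it pass with no filter (0.0895), median centring (0.0571) or the replicate block (0.443). Of the muscle markers only the transcription factor gene hlh-1 had every mutant array higher. In neuron markers 2 of 14 (14.3%) had every mutant array lower, and in pharynx markers 0 of 14, with medians of −0.15 and −0.088.

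**Figure D4:**
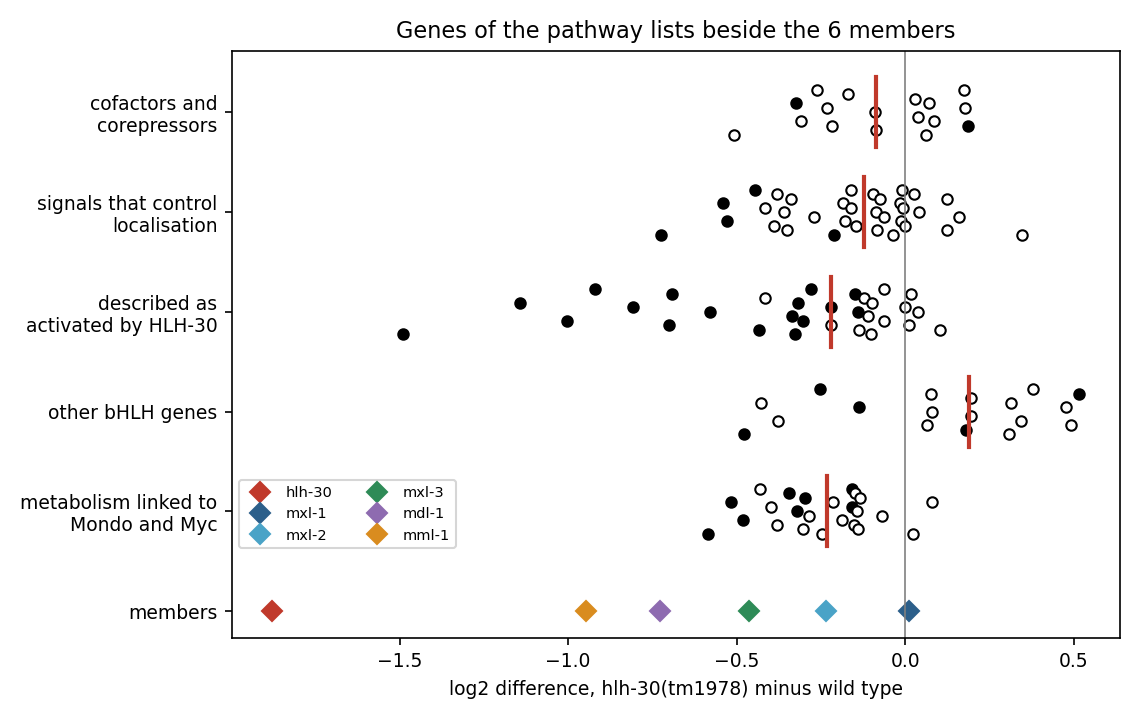
Log2 difference, mutant minus wild type, of each tested gene in 5 pathway lists and of the 6 genes of the family (diamonds). Filled circles are genes whose mutant and wild-type arrays do not overlap, and the red bar is the list's median, which is −0.22 for genes described as activated by HLH-30 and 0.19 for other basic helix-loop-helix genes.

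Among genes of the pathways that control where HLH-30 and the Mondo complex reside in the cell, 34 of 40 listed were tested. None was called by limma at an adjusted p of 0.05. An unadjusted p under 0.05 was found for 4, where 6.94% of all genes were lower and 1.66% higher. The median was −0.12, with 27 below 0, where 52.3% of all genes were. Every mutant array was lower for 5 of them (14.7%), a share near the 9.87% of all genes. That median was −0.064 without mutant 3 and −0.041 without both arrays numbered 3. The 5 included aak-2, a catalytic subunit of the AMP-activated kinase, at −0.72 (SE 0.14), and xpo-1, the exportin that carries proteins out of the nucleus, at −0.54 (SE 0.16). The kinase genes akt-1 and akt-2 of insulin signalling differed by −0.21 (SE 0.051) and −0.53 (SE 0.17). The limma adjusted p-values of these 4 genes lay between 0.19 and 0.456.

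Cofactors and corepressors had a median of −0.085 over 17 genes, and none was called by limma. At an unadjusted p under 0.05 were 2, where 6.94% of all genes were lower and 1.66% higher. Leaving out 1 array moved the median to between −0.12 (without wild type 3) and 0.0026 (without mutant 3). The genotypes did not overlap for 2 of them, 1 in each direction, where 9.87% of all genes had every mutant array below every wild-type array and 3.76% had every mutant array above. sin-3, the scaffold of the corepressor that Mad proteins recruit, was higher by 0.18 (SE 0.051, limma adjusted p 0.357), and the histone deacetylase gene hda-1 differed by −0.32 (SE 0.093, limma adjusted p 0.388). hsf-1, the heat shock factor, and daf-16, the FOXO factor, overlapped between genotypes, with differences of 0.18 and −0.23.

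Metabolic genes linked to Mondo and Myc factors had 22 of 24 below 0, where 52.3% of all genes were, and a median of −0.23. None was called by limma, and 5 had an unadjusted p under 0.05, where 6.94% of all genes were lower. Every mutant array was lower for 8 (33.3%), beside 9.87% of all genes. The median was −0.13 without mutant 3 and −0.069 without both arrays numbered 3. The smallest p-values, with limma adjusted values from 0.309 to 0.462, were those of nol-58, a nucleolar protein, at −0.32 (SE 0.080), the hexokinase gene hxk-3 at −0.48 (SE 0.13), the desaturase gene fat-6 at −0.58 (SE 0.16) and the pyruvate kinase gene pyk-1 at −0.30 (SE 0.098).

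The other basic helix-loop-helix genes did not share the downward direction of hlh-30, mml-1, mdl-1 and mxl-3 when all arrays were used. Of 34 listed 18 were tested, 13 of them above 0, where 52.3% of all genes were below 0. The median was 0.19 and none was called by limma. At an unadjusted p under 0.05 were 2, where 6.94% of all genes were lower and 1.66% higher. Mutant and wild-type arrays were separated at 5 of them, 3 lower and 2 higher in the mutant, beside 9.87% and 3.76% of all genes. Leaving out wild type 3 gave a median of 0.10, leaving out mutant 3 gave 0.018, and leaving out both gave −0.13. hlh-1, the counterpart of the muscle factor MyoD, was higher on every mutant array, by 0.52 (SE 0.18, limma adjusted p 0.482). sbp-1, the counterpart of SREBP and, like the genes described here, a helix-loop-helix leucine-zipper factor, was lower on every mutant array, at −0.48 (SE 0.19, limma adjusted p 0.577). aha-1, which encodes the shared partner of the PAS factors, differed by −0.14, and hlh-2, the shared partner of tissue-specific factors, by −0.43, the latter with overlapping arrays.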

How the data were processed

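The deposited file holds 1 log2 expression value for each probe set on each array. The submitters' processing notes name GCRMA and limma, without versions or settings. GCRMA brings arrays to a common distribution, and dim probe sets here share a floor value. Of the probe sets tested, 42.0% have identical values on some arrays, none of them a probe set of the 6 genes. Scanner files, detection calls and scan dates were not used here.

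Samples were grouped by genotype and replicate number in their titles. Control probe sets (77) were left out, and names came from the platform annotation, of which 20766 probe sets carried 1 gene, 887 several and 895 none. The filter was a log2 value of 4 on at least 3 arrays. Mutant minus wild type was fitted with limma 3.58.1 (lmFit and eBayes without covariates; R 4.3.3), Benjamini-Hochberg adjusted over all probe sets tested, with a threshold of 0.05. The brightest probe set stood for a gene. Alternatives changed the filter, scaling, floor, variance model, array weights, probe sets, block, covariate and the arrays used; those for epg-9 and tnt-2 were chosen after seeing the data. The number of arrays limits the precision.

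The 6 genes and the lists were chosen with earlier results of these data known, so a list such as the genes described as activated by HLH-30, which holds genes already known to be low here, is not independent evidence. Named from the lists were genes called and the 4 with the smallest p, and the 5 genes nearest to hlh-30.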

Additional observations from a re-analysis of the deposited data

How the results depend on the processing

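The sign of mxl-1 turned to −0.90 with array quality weights, −1.01 without both arrays numbered 3 and −0.038 with the early embryo covariate, and ran from −0.64 to 0.34 when each array was left out in turn. hlh-30 passed the threshold with array quality weights (−1.55), without both arrays numbered 3 (−1.47) and with the covariate (−1.86), and mml-1 with array quality weights (−0.80); mxl-2, mxl-3 and mdl-1 kept their direction and did not pass in any of 18 alternatives each. The calls of epg-9 and tnt-2 held in 7 and 9 of 18 alternatives, with differences from −1.05 to −0.92. Over the whole array 16 probe sets were called, against 5 with no filter, 25 after quantile normalization, 804 with array quality weights, 239 without both arrays numbered 3, 25 with the covariate, 29 genes with probe sets averaged, 87 at an adjusted p under 0.1, 1092 at an unadjusted p under 0.05, and 0 to 4 with each array left out. With the replicate block 0 were called. Whether the replicate numbers pair the samples was not settled. Same-numbered arrays deviated from their groups with correlations of −0.41, −0.42 and −0.52, and differently numbered arrays with −0.47 to 0.53. These correlations cannot decide it, because deviations within a group of 3 offset each other and the arrays numbered 3 stood apart. For the results given here the causes of these shifts were not tested. Only 3 arrays a group limit every interval.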

Other observations

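Among the 20 tested protein-coding genes nearest to hlh-30 in RefSeq's gene order, 10 on each side, none was called by limma. At an unadjusted p under 0.05 were 2, where 6.94% of all genes were lower and 1.66% higher. The median difference, mutant minus wild type, was −0.0031, with values from −0.73 to 0.39. Of the 20, 10 were below 0, where 52.3% of all genes were. Mutant and wild-type arrays were fully separated at 2 of these genes, 1 in each direction, which is near the background of 9.87% of all genes lower and 3.76% higher. Chosen for mention after their values were seen, they were F49F1.5, lower in the mutant at −0.73 (SE 0.27, limma adjusted p 0.521), and C35B1.5, higher at 0.39 (SE 0.078, limma adjusted p 0.22).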
